A study of Mus musculus with 4 samples.

Results

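The clustered protocadherins are 57 protein-coding genes of mouse chromosome 18, chosen by symbol (Pcdha, Pcdhb, Pcdhga, Pcdhgb and Pcdhgc) from the 21887 protein-coding genes of a RefSeq table of GRCm38.p6. They form an alpha part of 14 genes, a beta part of 22 and a gamma part of 21, all on the plus strand. Openness of chromatin at these genes was read from 1 list of regions called from bulk ATAC-seq, which marks stretches of the genome that the Tn5 transposase can enter. The list was deposited with 4 samples of mouse salivary gland organoids (mSGOs), 2 of passage 1 and 2 of passage 2. The labels give no genotype beyond the strain. All samples were non-irradiated and grown from submandibular glands of female C57BL/6 mice in Matrigel with WRY medium, which holds Wnt3a and R-spondin1. The paper profiled organoids at an earlier and a later stage of culture, and its ATAC-seq was of the earlier one. Each passage was represented by a mouse labelled 12 weeks old and by another labelled 3 months old, and the 4 samples came from 4 different animals. The list gives 1 value per region for all samples together, so it allows no comparison between passages, no replicate spread and no p-value, and the depth of each sample is unknown. In bulk material, a region that is open in few cells and one that is weakly open in all cells cannot be told apart.

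Clustered protocadherins are adhesion proteins of the cadherin superfamily, best known from the nervous system, where each neuron uses a small set of them as a surface identity. Each alpha and gamma gene has its own promoter and a large variable first exon, which is spliced to exons shared by the whole part. Beta genes consist of a variable exon alone. In neurons, the promoters of most variable exons are chosen at random in each cell with the help of CTCF and cohesin and are otherwise silenced by DNA methylation, whereas the C-type genes at the ends of the alpha and gamma parts follow other rules. Distal elements near the shared alpha exons and downstream of the gamma part are known to act on these promoters. In the GRCm39 annotation, all 14 alpha genes shared their last 3 exons, as did all 21 gamma genes, and all 22 beta genes had a single exon. The median length of the first exon was 2490 bp in alpha, 3714 bp in beta and 2611 bp in gamma genes. Because of the shared exons, gene bodies overlap, and a region between the 5′ ends lies inside the bodies of many genes at once.

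Of the 57 clustered protocadherin genes, 2 had the midpoint of an open region within 1 kb of their 5′ end (3.51%), and these were Pcdhgc3 and Pcdhgc4, neighbouring C-type genes of the gamma part. Such a region was found for 8065 of all 19808 protein-coding genes with a known strand (40.7%). The share was 41.3% for the 496 protein-coding genes of chromosome 18, and 46.2% for the 439 of these that are not clustered protocadherins. The 14 alpha genes and the 22 beta genes had none. In the gamma part, 0 of 12 Pcdhga genes, 0 of 6 Pcdhgb genes and 2 of 3 Pcdhgc genes had one. Taking the C-type genes of both parts together, 2 of 5 had a region, against 0 of the 30 other alpha and gamma genes. Neighbouring genes of 1 cluster are not independent observations, and these shares were not tested against each other. With other distances, 2 of the 57 had a region within 500 bp (37.7% of protein-coding genes), 2 within 2 kb (44.0%) and 3 within 5 kb (49.3%), Pcdhgc5 being the gene added. Depth is unknown, so a gene without a region is one at which no region was listed, which does not show that its promoter was closed in every cell.

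Pcdhgc3 had the strongest region among the clustered protocadherin genes. It lay on chromosome 18 from 37805999 to 37806499 (GRCm38, the build inferred for the list, since the labels name GRCm39), from −411 to +89 bp around the 5′ end, so that it covered the start of the gene. Its fold over the local background was 10.5, its IDR score was 1000 and its −log10 q-value was 57.8. The score describes how well replicate peak calls agree in rank, and 1000 is its highest value in the list. Among regions within 1 kb of a protein-coding 5′ end, 74.4% had a lower fold than the one at Pcdhgc3, and their median fold was 7.90. The strongest of its 2 summits lay at 37806343, upstream of the 5′ end. The other summit, at 37806043, had a fold of 2.47.

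A further region lay from 37808688 to 37809044, 2278 to 2634 bp downstream of the 5′ end of Pcdhgc3. The first exon of Pcdhgc3 is 2568 bp long in the GRCm39 annotation, so that the region, measured from the 5′ end, spanned the boundary between this variable exon and the intron that follows. It was the weakest of the cluster, with a fold of 4.26 and an IDR score of 563. Of all regions, 3.52% had a lower fold.

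At Pcdhgc4, a pair of regions stood on either side of the RefSeq 5′ end. The upstream one, from 37814559 to 37814919, lay from −520 to −160 bp and had a fold of 7.01 and an IDR score of 990. The other, from 37815265 to 37815444, lay 186 to 365 bp inside the first exon, which is 3117 bp long, and had a fold of 6.05 and an IDR score of 721. Neither reached the median fold of regions near protein-coding 5′ ends, 7.90. The 345 bp between them, in which the RefSeq 5′ end of Pcdhgc4 lies, held no listed region. Measured from the 5′ end of Pcdhgc3, the upstream region spanned 8149 to 8509 bp. The 5′ end of Pcdhgc4 lay at 8669 bp in the RefSeq table, but at 8504 bp in the GRCm39 annotation. Whether a region covers the start of Pcdhgc4 may thus depend on the annotation.

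Pcdhgc5, the last gene of the gamma part, had no region within 1 kb. The nearest midpoint lay 4.19 kb upstream, at the first exon of Pcdhgc4. Its 5′ end lay in an interval without a region, from 37815445 to 37849497, which ran for 34.1 kb through the shared 3′ exons of the gamma genes and past the end of the cluster. All 4 regions of the gamma part thus lay in a stretch of 15.1 kb around the 5′ ends of Pcdhgc3, Pcdhgc4 and Pcdhgc5. None was listed in the 104 kb from the 5′ end of Pcdhga1 to that of Pcdhga12, which holds 18 gamma 5′ ends.

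**Figure D1:**
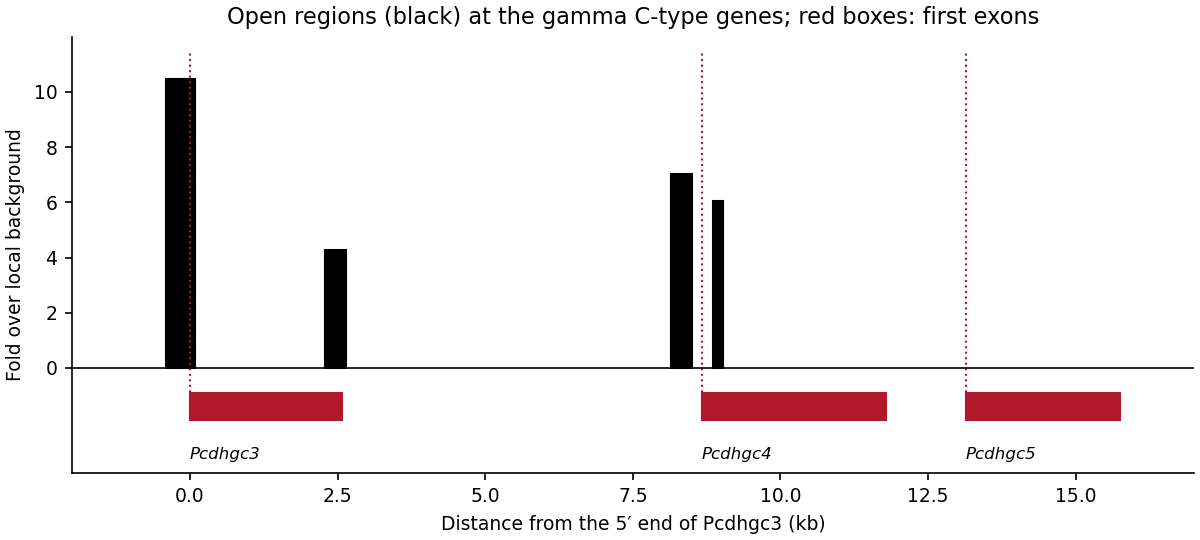
Open regions at the C-type genes of the gamma part. Black bars are regions, drawn to their width, with the fold over local background on the y axis and the distance from the 5′ end of Pcdhgc3 in kb on the x axis. Dotted lines mark RefSeq 5′ ends, and red boxes start there and have the length of the first exon in the GRCm39 annotation. The region at the 5′ end of Pcdhgc3 has a fold of 10.5, the pair around the 5′ end of Pcdhgc4 7.01 and 6.05, and Pcdhgc5 has none.

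In the alpha part, the 14 genes were between 128 kb and 342 kb from the nearest region midpoint, with a median of 181 kb. Pcdha1, the first gene, lay 128 kb from a region upstream of the cluster, at the vault RNA gene Vaultrc5. Its successors lay farther from that same region in the order of their position. Pcdhac1 and Pcdhac2, the C-type genes of this part, were the farthest from any region among the alpha genes, at 288 kb and 342 kb. No region was listed in the 259 kb from the start of Pcdha1 to the shared 3′ end of the alpha genes. This includes the 45.2 kb after the 5′ end of Pcdhac2, which hold the shared alpha exons, and a further 76.1 kb up to Pcdhb1 held no region either.

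In the beta part, the 22 genes were between 126 kb and 379 kb from the nearest region midpoint, with a median of 216 kb. Pcdhb1 was the farthest of all 57 genes, at 379 kb, and Pcdhb22, the last of the part, was the nearest of the beta genes, at 126 kb. For every beta gene, the nearest region was the one at the 5′ end of Taf7, downstream of the part. No region was listed in the 256 kb of the beta part.

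In the gamma part, distances were shorter, from 0.161 kb to 80.5 kb with a median of 50.2 kb. The first 10 genes, from Pcdhga1 to Pcdhgb4, were nearest to the region at Taf7, and the next 8, from Pcdhga8 to Pcdhga12, to that at Pcdhgc3. After Pcdhgc5, the genes without a region that lay closest to one were Pcdhga1 at 17.6 kb, Pcdhga2 at 24.7 kb, Pcdhga3 at 30.1 kb and Pcdhgb1 at 36.1 kb, all of them beside Taf7. Pcdhga8, between Taf7 and Pcdhgc3, had the largest distance of the gamma genes. The median distance over all protein-coding genes was 5.54 kb, a value below that of 54 of the 57 clustered protocadherin genes. A distance over 100 kb was found for 36 of the 57 (63.2%), which were all the alpha and beta genes, and for 14.2% of protein-coding genes.

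**Figure D2:**
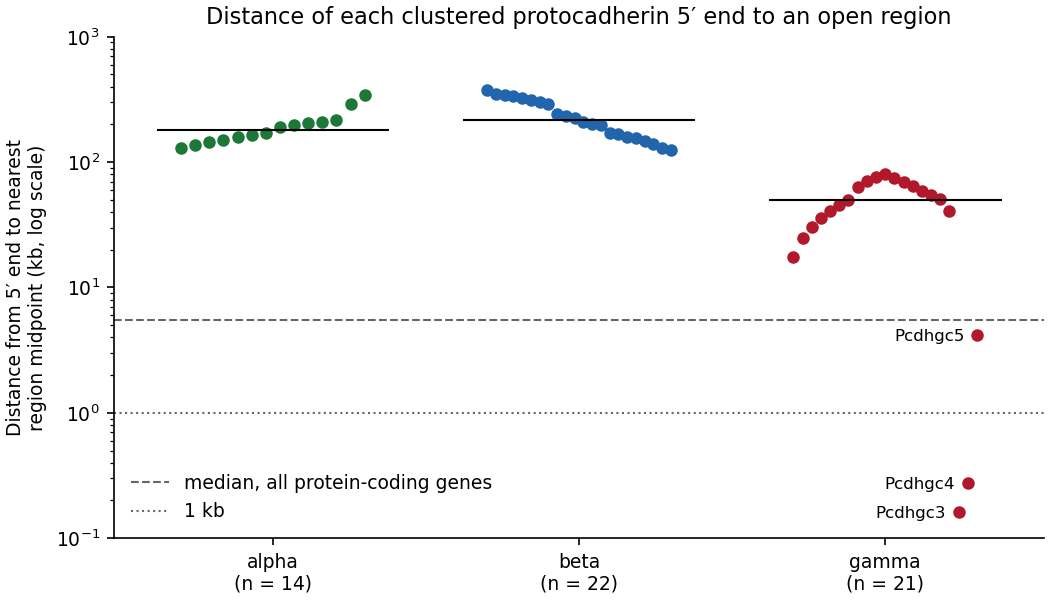
Distance from the 5′ end of each clustered protocadherin gene to the nearest region midpoint, in kb on a log scale, by part. Genes are in chromosomal order within each part, black lines are medians (181 kb, 216 kb and 50.2 kb), the dashed line is the median of all protein-coding genes (5.54 kb) and the dotted line marks 1 kb. Pcdhgc3 and Pcdhgc4 lie below 1 kb, Pcdhgc5 lies at 4.19 kb, and the other 54 genes lie at 17.6 kb or more.

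Across the whole cluster, from the 5′ end of Pcdha1 to the shared gamma 3′ end, 5 regions were listed in 912 kb, or 0.548 per 100 kb. Along chromosome 18 the density was 1.20 regions per 100 kb, and along all chromosomes 1.18. The parts differed in density, with 0 regions per 100 kb in alpha, 0 in beta and 2.22 in gamma. These values come from 0, 0 and 4 regions, and the difference was not tested. The fifth region belonged to no clustered protocadherin. It lay from 37644043 to 37644395 at the 5′ end of Taf7, which encodes a subunit of the general transcription factor TFIID and sits between the beta and gamma parts on the opposite strand. Its fold of 14.9 was the highest in the cluster, and 94.4% of regions near protein-coding 5′ ends had a lower one. Slc25a2, a mitochondrial carrier gene beside Taf7, had no region within 1 kb of its 5′ end.

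**Figure D3:**
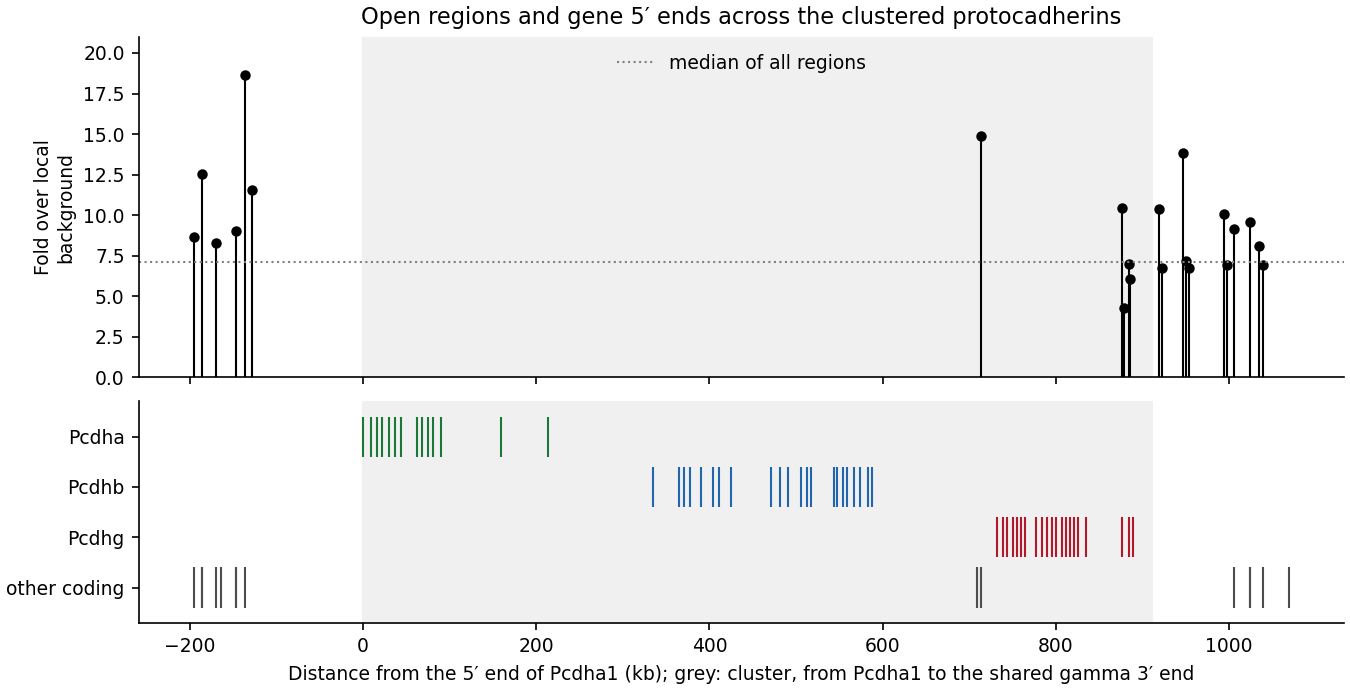
Open regions and gene 5′ ends across the cluster and 200 kb on either side. The upper panel gives each region's fold over local background at its distance from the 5′ end of Pcdha1 in kb, with the median of all regions (7.11) as a dotted line, and the lower panel marks 5′ ends of alpha, beta, gamma and other protein-coding genes. The grey cluster holds 5 regions, against 6 in the upstream and 11 in the downstream flank.

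The stretch without a region that contains the alpha and beta parts ran from 36802035 to 37644042, a length of 842 kb. By length it stood at rank 428 of 31990 intervals between neighbouring regions. By the number of protein-coding 5′ ends inside, which was 39, it stood at rank 5. These were the 36 alpha and beta genes, Slc25a2, Gm37013 and Gm38666. The last 2 start in the alpha part and end with the gamma genes. The 4 intervals with more 5′ ends lay on chromosomes Y, 7, 14 and X, and were all longer. Those on chromosomes 7 and X held mainly vomeronasal receptor (Vmn) and reproductive homeobox (Rhox) genes. A second stretch, from the Taf7 region to that at Pcdhgc3, ran for 162 kb with the 5′ ends of 18 gamma genes.

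The cluster was also set beside 2975 consecutive windows of the same length, 912 kb, over all chromosomes with a region. The median window held 9 regions (quartiles 1 and 17) and 4 protein-coding 5′ ends, and 38.4% of windows held no more regions than the cluster. Among the 2520 windows with a protein-coding 5′ end, the median was 11 regions (quartiles 4 and 19), and this share was 28.8%. Of the 78 windows with at least 30 protein-coding 5′ ends, which held a median of 29.5 regions (quartiles 23.2 and 34.8), 1 had 5 regions or fewer. Among these 78 were the neighbouring windows of chromosome 18 across which the cluster falls. They held 18 and 23 regions and 41 and 46 protein-coding 5′ ends, flanking genes included. The cluster held 61 protein-coding 5′ ends, and the window with most held 60. Windows start at fixed positions, whereas the cluster is bounded by its own genes, and its genes share exons, so that 5′ ends do not count separate loci in the same way.

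**Figure D4:**
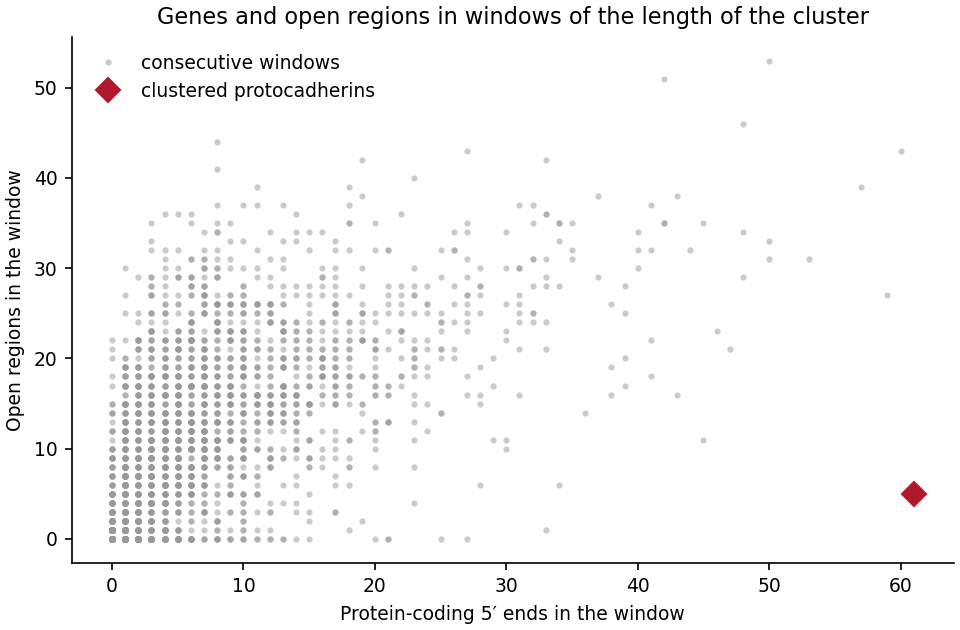
Number of open regions against the number of protein-coding 5′ ends in consecutive windows of 912 kb (grey points) and in the cluster (red diamond). The cluster has 61 protein-coding 5′ ends and 5 regions, while windows with at least 30 such 5′ ends held a median of 29.5 regions. The grey points include the windows across which the cluster falls.

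Most protein-coding genes beside the cluster had a region at the start. The share was 40.7% for all protein-coding genes, and 46.2% for those of chromosome 18 that are not clustered protocadherins. Within 200 kb upstream, 7 of 8 had one, among them Zmat2, Hars and Hars2. The last 2 encode the cytosolic and mitochondrial histidyl-tRNA synthetases from a shared start region. The exception was Dnd1, a germ cell gene, at 6.02 kb. The region at Zmat2 had a fold of 18.6, the highest of the flanks. Tmco6, Ndufa2, Ik and Wdr55 had regions with folds of 8.65, 12.5, 12.5 and 8.27, of which Ndufa2 and Ik shared one. No region lay in the 100 kb next to Pcdha1. Downstream, 4 of 5 genes had a region, namely Diaph1, Hdac3, Rell2 and Fchsd1, while Arap3, at 29.8 kb, had none. Hdac3 and Rell2 shared one. Genes that share a region are not separate observations, and these shares were not tested.

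The downstream flank held 11 regions in 200 kb, or 5.50 per 100 kb, against 6 and 3.00 upstream. Of these 11, 8 lay within Diaph1, which encodes a formin that builds actin filaments and ends close to the last gamma exon. One of the 8 was at the 5′ end of Diaph1, and the other 7 lay between 7.84 kb and 86.1 kb after the end of the cluster, with folds of 6.73 to 13.9. Within 50 kb of the cluster there were 5. The nearest, from 37849498 to 37849925, had a fold of 10.4, and the strongest, from 37877195 to 37877568, had a fold of 13.9. Which genes these regions act on was not examined.

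Sequence around the 57 5′ ends was described in GRCm39 alone. There, the distance of each 5′ end from the 5′ end of Pcdhgc3 differed by at most 435 bp from its value in GRCm38. Observed over expected CpG, a measure of CpG islands, was taken over 500 bp on either side of the 5′ end. Its median was 0.685 in alpha genes (range 0.564 to 0.768), 0.379 in beta genes (0.158 to 0.520) and 0.581 in gamma genes (0.241 to 0.854), against 0.505 over 21730 protein-coding genes (quartiles 0.212 and 0.746). All 14 alpha genes thus lay above the median of protein-coding genes although none had a region, while 21 of 22 beta genes lay below it. G+C content was lower than the median of protein-coding genes, 53.6%, in 55 of the 57. The exceptions were Pcdhgc3, which had the highest G+C content of the cluster, 58.1%, and Pcdhac1, with 55.9% and no region. Pcdhgc4, at 48.1% G+C and 0.518 observed over expected CpG, did not stand apart from gamma genes without a region. Pcdhgc5 had 0.241, the lowest of the gamma genes.

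**Figure D5:**
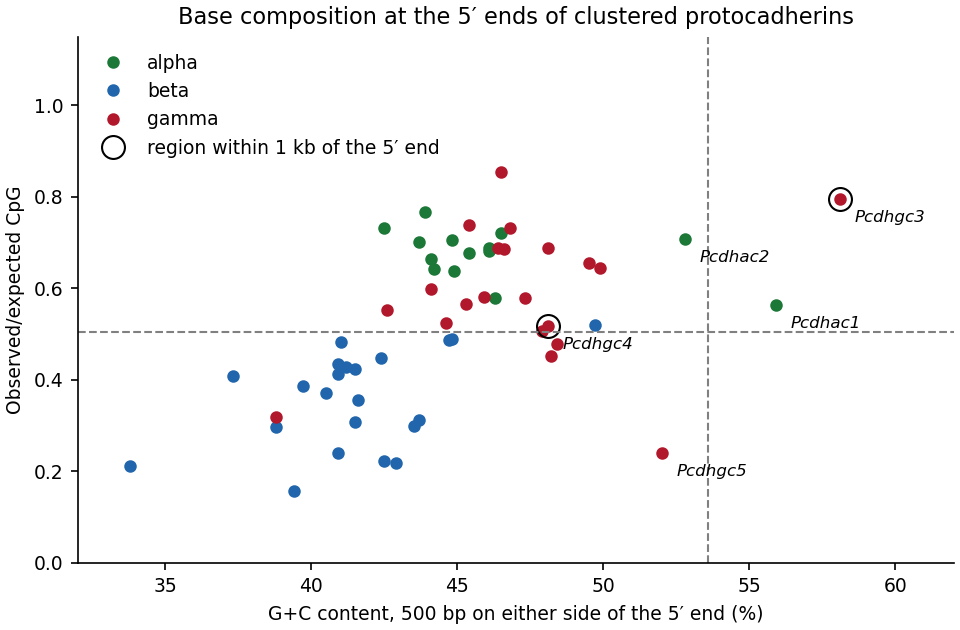
Observed over expected CpG against G+C content within 500 bp on either side of each clustered protocadherin 5′ end, by part. Circles mark the genes with a region within 1 kb, Pcdhgc3 and Pcdhgc4, and dashed lines are the medians of protein-coding genes (0.505 and 53.6%). Pcdhgc3 lies at 58.1% G+C, to the right of all other genes, and Pcdhgc4 lies among gamma genes without a region.

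Variable exons resemble one another, and reads that match several places are often discarded, so the share of 75-base words that occur once in the genome was counted around each 5′ end. In the 1 kb upstream, it was at least 93.4% for each of the 57 genes, with a median of 100%. In the 1 kb downstream, which lies within the first exon, it ranged from 77.0% to 100% in alpha, from 88.3% to 100% in beta and from 93.3% to 100% in gamma genes. Pcdhgc3 and Pcdhgc4, with a region, and Pcdhac1, Pcdhac2, Pcdhgc5 and Pcdhb1, without one, all reached 100% on both sides. These words were compared without mismatches, and the read filters of the authors' processing are not known.

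Other genes of the cadherin superfamily were read in the same way. A region at the start was found for 6 of 12 non-clustered protocadherins (50.0%, against 40.7% of protein-coding genes), namely Pcdh1, Pcdh7, Pcdh10, Pcdh17, Pcdh18 and Pcdh19. This order turned with stricter sets of regions, as 2 of 12 had one among the 16006 regions with the lowest q-values, against 27.5% of protein-coding genes, and 2 of 12 at an IDR score of 1000, against 25.5%. Folds were highest at Pcdh19 (9.73) and Pcdh17 (8.01), and lowest at Pcdh7 (3.85) and Pcdh1 (4.85). Pcdh7 held 9 regions within the gene. The 6 without one were Pcdh8, Pcdh9, Pcdh11x, Pcdh12, Pcdh15 and Pcdh20. Among 10 cadherin genes (Cdh1 to Cdh6, Cdh8, Cdh11, Cdh13 and Cdh15), 3 had a region. These were Cdh1, the epithelial cadherin, with a fold of 7.77, Cdh3, the cadherin of basal epithelial cells, with 8.96, and Cdh4 with 4.81. Cdh2, the cadherin of neurons and mesenchyme, lay 482 kb from the nearest region, and Cdh5 of endothelium 44.9 kb.

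The Ugt1a cluster of chromosome 1 is built in the same way, with variable first exons spliced to shared ones, and encodes enzymes that conjugate bilirubin and drugs with glucuronic acid. Its 9 genes included 3 with a region at the start (33.3%, against 40.7% of protein-coding genes), namely Ugt1a1, Ugt1a6a and Ugt1a6b, with folds of 4.79, 7.70 and 6.03. Over its 165 kb, it held 3 regions, or 1.82 per 100 kb. Within 500 bp on either side of its 5′ ends, the median observed over expected CpG was 0.140, below each of the 3 protocadherin medians.

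Genes known to act on the clustered protocadherins were also examined. Of 22, 13 had a region at the start (59.1%, against 40.7% of protein-coding genes). Ctcf, whose product binds protocadherin promoters and their distal elements, had one with a fold of 6.00. Of 10 genes of cohesin, its loader and its release factors, 6 had one, including Smc1a (8.65), Smc3 (11.2) and Stag2 (7.26). Rad21 and Wapl had regions at 1.71 kb and 1.42 kb, and Stag1 and Nipbl lay farther from one. Of 6 repressor genes, 5 had a region, namely Smchd1 with a fold of 6.93, Setdb1, Trim28, Lrif1 and Atf7ip, the exception being Wiz. Of 5 genes of DNA methylation, Tet3 had a region, with a fold of 9.66, while Dnmt1, Dnmt3a, Dnmt3b and Tet1 had none at the outermost 5′ end. Dnmt3b, the enzyme that methylates protocadherin promoters, lay 39.6 kb from the nearest region. For Dnmt1, Dnmt3a and Tet1, this distance was 6.95 kb, 9.59 kb and 22.1 kb, and they held 2, 0 and 1 regions within the gene.

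The labelled cell type was checked by the same measure. A region at the 5′ end was found for 11 of 14 epithelial duct and stem/progenitor markers (78.6%, against 40.7% of protein-coding genes). These included Krt5, Krt14, Krt8, Epcam, Cdh1 and Sox9, while Krt7, Krt18 and Trp63 had none there. Only the outermost 5′ end was scored, and Trp63 held 7 regions within the gene, whereas Krt7 and Krt18 held 0. Of 10 neural markers, Snap25 and Mbp had one (20.0%), and Rbfox3, Syt1, Tubb3, Nefl, Stmn2, Elavl3, Sox10 and Gfap had none. The 6 endothelial and 6 fibroblast markers had none within 1 kb, and of 6 immune markers Cd68 had one (16.7%). Among the endothelial markers, Pecam1 had a region at 1.43 kb, with a fold of 9.46. Whether other cells of the culture contributed to the regions at the clustered protocadherins was not tested.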

How the data were processed

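Bulk ATAC-seq of 4 mSGO samples was represented by 1 deposited list of regions. The paper also describes a consensus peak file from all organoid samples, with another stated number of peaks. How that file relates to the deposited list is not given in the sources used here. From 75 bp paired-end reads, alignment and peak calling by the authors used the ATAC-seq pipeline of ENCODE, whose version and read filters are not given in the sources used here. Per region, the deposited list holds an IDR score, a fold (ratio) over local background, and a p-value and a q-value as −log10, all from the authors' peak caller, pooled over samples and with no counts or depth.

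The 69545 lines were joined into 32011 distinct regions, each with the values of its strongest summit. The labels name GRCm39, but a region midpoint lay within 1 kb of 40.7% of protein-coding 5′ ends in the GRCm38.p6 RefSeq table and of 5.03% in the GRCm39 annotation (41.3% and 7.45% on chromosome 18), and the list was read as GRCm38. Strand came from GENCODE release M39 by gene name or synonym and chromosome, for 19808 of 21887 protein-coding genes. A gene was counted as having a region when a midpoint lay within 1 kb of its outermost 5′ end. Base composition, exon lengths and 75-base words occurring once on either strand of the primary assembly were computed in GRCm39 alone. No sequence of these genes is printed here.

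No statistical test was made. Genes and gene lists were chosen with earlier results of these data known. Named genes were those with a region, the ends of each part, C-type genes, the 5 closest to a region, flanking genes and members of the lists; the intervals with most 5′ ends were named after their values were seen. Functions were tested on simulated data. Python 3.11.15, numpy 2.4.6, pandas 2.3.3 and matplotlib 3.10.9 were used. Alternatives changed the distance, the use of midpoints and strand, the set of regions, and the bounds of the cluster and flanks.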

Additional observations from a re-analysis of the deposited data

How the results depend on the processing

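Leaving out a sample was not possible, because all values are pooled. No paired analysis was possible because the list joins all samples into 1 value. Pcdhgc3 and Pcdhgc4 were the genes with a region at the 5′ end within 500 bp and 2 kb, with any base of the region counted, with either end of the gene, with the strongest summit in place of the midpoint (chosen after seeing the data), and in the 16006 regions with the lowest q-values. Within 5 kb, Pcdhgc5 joined them (3 genes). With the 14422 regions at an IDR score of 1000, Pcdhgc3 alone remained (1 gene), and protein-coding genes with a region fell from 40.7% to 25.5%. No alpha or beta gene gained a region, and neither part held one, under any alternative run on it. Across the cluster, 5 regions became 9 when every line was counted, 3 (0.329 per 100 kb) among the 16006 and 2 (0.219 per 100 kb) at an IDR score of 1000, and the gamma part held 2 and 1 under these last 2 settings. Flanks of 100 kb and 500 kb held 0 and 18 regions upstream, and 500 kb held 21 downstream. Of 12 non-clustered protocadherins, 2 kept a region among the 16006 (27.5% of protein-coding genes) and 2 at an IDR score of 1000 (25.5%), below rather than above the share of protein-coding genes, and at this score 1 Ugt1a gene kept one. Fewer regions follow from these settings by construction. Of 93 alternative values, 77 stayed within 1.5 times the value reported. These 77 include the values of 0 for alpha and beta genes and parts, which could hardly change. Stricter sets only remove regions, and the smallest distance of these genes from a region midpoint was 126 kb. With unknown depth, weak regions may have gone unlisted.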
